A study of Homo sapiens with 6 samples.

Results

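Transcripts of 9 genes of megakaryocytes and platelets were followed in the human cell line K562. They were taken by symbol from per-library tables of read counts, and all 9 were among the 23710 genes listed there. The 9 genes are TUBB1, ITGA2B, ITGB3, GP9, GP1BA, PF4, FLI1, VWF and THBS1. One group of 3 RNA sequencing libraries came from cells given 20 µM 3FM-dC together with 2 mM THU for 24 h. The other 3 libraries came from cells given DMSO, the solvent of both compounds, for 24 h, and neither group received 3FM-dC or THU alone. All cells were K562, a line from a patient with chronic myelogenous leukaemia, grown in medium with 10% serum and used at passages 13 to 16. The study's title is about activating TET2, a dioxygenase of methylated cytosine in DNA, with a small molecule. No label states that the replicates were separate cultures, so a p-value speaks to the scatter among the 6 libraries alone, and that scatter could be technical.

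Megakaryocytes are the large bone marrow cells that shed platelets. The transcription factors GATA1, RUNX1 and FLI1 switch on their genes, which encode adhesion receptors for collagen, fibrinogen and von Willebrand factor, the cargo of secretory granules, and a special tubulin that builds the rim of the disc-shaped platelet. Erythroid and megakaryocytic cells descend from a common progenitor. K562 carries features of both, can be driven toward either fate by chemicals, and is used as a model of that choice.

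Depth ranged from 18408826 to 22750278 gene counts per library. Levels are given as CPM, which are counts scaled to a common library size after TMM scaling, and 3 counts came to between 0.136 and 0.168 CPM. Erythroid transcripts were abundant: 15 globin and other erythroid marker genes together reached between 3981 and 4157 CPM with 3FM-dC plus THU and between 7927 and 8124 CPM with DMSO. The 9 genes together held between 17.9 and 19.8 CPM with 3FM-dC plus THU and between 35.1 and 38.6 CPM with DMSO. The fall of this sum lay in TUBB1, at between 5.43 and 6.05 CPM with 3FM-dC plus THU and between 26.8 and 29 CPM with DMSO. No other gene of the 9 that could be tested fell. Of all 12339 genes tested with edgeR's quasi-likelihood test, 66.4% passed an adjusted p of 0.05, and 33.8% were higher and 32.7% lower with 3FM-dC plus THU. With libraries scaled by total counts, 5048 genes were higher and 3189 lower, against 4167 and 4031 with TMM.

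RefSeq promoter sequences were at hand for 4 of the 9 genes, and they are shown because these genes span the responses found here: TUBB1 fell, ITGA2B did not pass the test, THBS1 rose and GP9 was close to undetected. Each is the 250 bases before the annotated start in build GRCh38.p14, printed 5′ to 3′ on the strand of the gene. TUBB1 lies at chr20:59019179-59019428 on the plus strand, ITGA2B at chr17:44389650-44389899 on the minus strand, THBS1 at chr15:39580829-39581078 on the plus strand and GP9 at chr3:129060529-129060778 on the plus strand. Capitals mark words bound by GATA factors (AGATAA or AGATAG, and also TGATAA or else TGATAG), by ETS factors such as FLI1 (AGGAAG or CGGAAG) and by RUNX factors (TGTGGT or TGCGGT), searched on both strands.
TUBB1: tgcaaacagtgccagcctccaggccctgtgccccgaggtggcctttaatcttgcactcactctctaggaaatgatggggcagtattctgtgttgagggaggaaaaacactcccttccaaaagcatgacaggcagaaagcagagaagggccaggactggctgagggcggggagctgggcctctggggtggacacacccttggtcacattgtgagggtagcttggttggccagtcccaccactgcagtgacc
ITGA2B: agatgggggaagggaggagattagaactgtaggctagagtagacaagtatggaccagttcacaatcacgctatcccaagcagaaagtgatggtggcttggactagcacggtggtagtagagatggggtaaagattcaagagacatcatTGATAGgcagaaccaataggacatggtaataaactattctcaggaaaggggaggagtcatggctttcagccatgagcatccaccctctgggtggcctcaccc
THBS1: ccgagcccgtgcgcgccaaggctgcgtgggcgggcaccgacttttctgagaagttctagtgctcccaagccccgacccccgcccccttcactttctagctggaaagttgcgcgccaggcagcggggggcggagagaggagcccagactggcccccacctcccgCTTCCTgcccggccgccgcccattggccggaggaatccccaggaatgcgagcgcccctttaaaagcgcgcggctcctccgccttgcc
GP9: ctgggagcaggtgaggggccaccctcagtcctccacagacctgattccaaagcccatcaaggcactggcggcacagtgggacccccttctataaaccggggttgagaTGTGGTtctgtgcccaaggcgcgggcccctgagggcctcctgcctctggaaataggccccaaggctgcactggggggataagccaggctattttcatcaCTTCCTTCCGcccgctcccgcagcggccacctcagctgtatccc
Of these stretches, that of TUBB1 held none of the words. That of ITGA2B held 1 GATA word, 102 bases before the start. That of THBS1 held 1 ETS word, and that of GP9 held 2 ETS words and 1 RUNX word, and the ETS words of GP9, which begin 44 and 40 bases before its start, overlap each other by 2 bases. Among 35116 promoter stretches of the same length, 22.3% held a GATA word, 40.8% an ETS word and 16.3% a RUNX word, so such matches are common and do not mark a bound site. The entries of ITGB3, GP1BA, PF4, FLI1 and VWF were not at hand.

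Of the 9 genes, TUBB1 fell, ITGB3 and THBS1 rose, ITGA2B did not pass the test, and GP1BA, VWF, FLI1, GP9 and PF4 had too few counts to be tested. The 4 tested genes thus gave 3 calls, in a background where 66.4% of all tested genes were called. The CPM ranges of the groups did not overlap for the same 3 genes, against 70.0% of all tested genes. ITGB3 and THBS1 reached the filter's minimum count in enough libraries only because of the treated ones, so the filter partly fixed their direction. Of all tested genes, 10.2% were called at least 2-fold higher, as ITGB3 and THBS1 were, and 2.46% at least 2-fold lower, as TUBB1 was.

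TUBB1 encodes the beta tubulin of the platelet's microtubule ring. It had 5.73, 6.05 and 5.43 CPM in the 3 libraries with 3FM-dC plus THU, against 27.4, 26.8 and 29 CPM in the 3 DMSO libraries. Every treated library lay far below every DMSO library, and the spread within each group was small. TUBB1 fell 4.84-fold (log2 fold change -2.27, SE 0.11, edgeR adjusted p = 4.19e-17), and its log2 fold change was the 26th lowest of 12339 tested genes. In bulk RNA, fewer cells with the transcript and less of it per cell cannot be told apart. In the GENCODE annotation of GRCh38, 1188 of the 3496 exonic bases of TUBB1 overlap ATP5E on the opposite strand. The strand setting of the counting is not given, and ATP5E, a subunit of ATP synthase, fell by 0.39 on the log2 scale (28.0 ± 1.87 CPM with 3FM-dC plus THU and 36.7 ± 1 CPM with DMSO, SD, n = 3 each).

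ITGA2B and ITGB3 encode the chains of integrin αIIbβ3, the fibrinogen receptor through which platelets aggregate. ITGA2B had 8.55, 8.57 and 7.26 CPM with 3FM-dC plus THU, against 6.77, 6.95 and 7.40 CPM with DMSO. The groups overlapped through treated replicate 3 and DMSO replicate 3. ITGA2B did not pass the test (log2 fold change 0.20, 95% interval -0.09 to 0.50, edgeR adjusted p = 0.213), and this interval leaves room for a small difference in either direction. ITGB3 had 1.89, 2.05 and 2.25 CPM with 3FM-dC plus THU, against 0.887, 0.392 and 1.09 CPM with DMSO. All 3 treated libraries lay above all 3 DMSO libraries, which themselves held only between 7 and 24 counts. ITGB3 rose 2.56-fold (log2 fold change 1.36, SE 0.36, edgeR adjusted p = 0.00147). In the GENCODE annotation ITGB3 shares 2266 exonic bases with AC068234.1, a gene on the same strand whose symbol has no row in the tables.

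THBS1 encodes thrombospondin-1, an adhesive protein of platelet alpha granules that fibroblasts and endothelial cells also make. It had 1.64, 1.57 and 1.87 CPM with 3FM-dC plus THU, against 0.499, 0.448 and 0.862 CPM with DMSO. The groups did not overlap, with between 32 and 40 counts in treated libraries and between 8 and 19 in DMSO libraries. THBS1 rose 2.74-fold (log2 fold change 1.45, SE 0.38, edgeR adjusted p = 0.00128). COL6A3, a collagen chain and fibroblast marker, moved with it, at 30.6 ± 7.27 CPM with 3FM-dC plus THU and 0.830 ± 0.446 CPM with DMSO (SD, n = 3 each). The 11 listed fibroblast markers summed to between 32.2 and 43.4 CPM with 3FM-dC plus THU and to between 7.85 and 11.9 CPM with DMSO. COL6A3 made up that difference: COL1A2, the next most abundant, was at 5.72 ± 1.72 CPM with 3FM-dC plus THU and 8.26 ± 1.55 CPM with DMSO. Of the 3 fibroblast markers tested, COL6A3 and COL1A1 rose and COL1A2 fell, and LUM, PDGFRA, POSTN and THY1 had no count in any library. COL1A1 passed the filter by way of its treated libraries, which partly fixed its direction, and 33.8% of all tested genes rose and 32.7% fell. The groups overlapped for COL1A2, and its call was lost without treated replicate 2 (edgeR adjusted p = 0.073) or without DMSO replicate 1 (0.0928). FSIP1, which overlaps THBS1 on the opposite strand, had 30 counts with 3FM-dC plus THU and 18 with DMSO. The part of fibroblast genes in the THBS1 result was not tested.

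**Figure D1:**
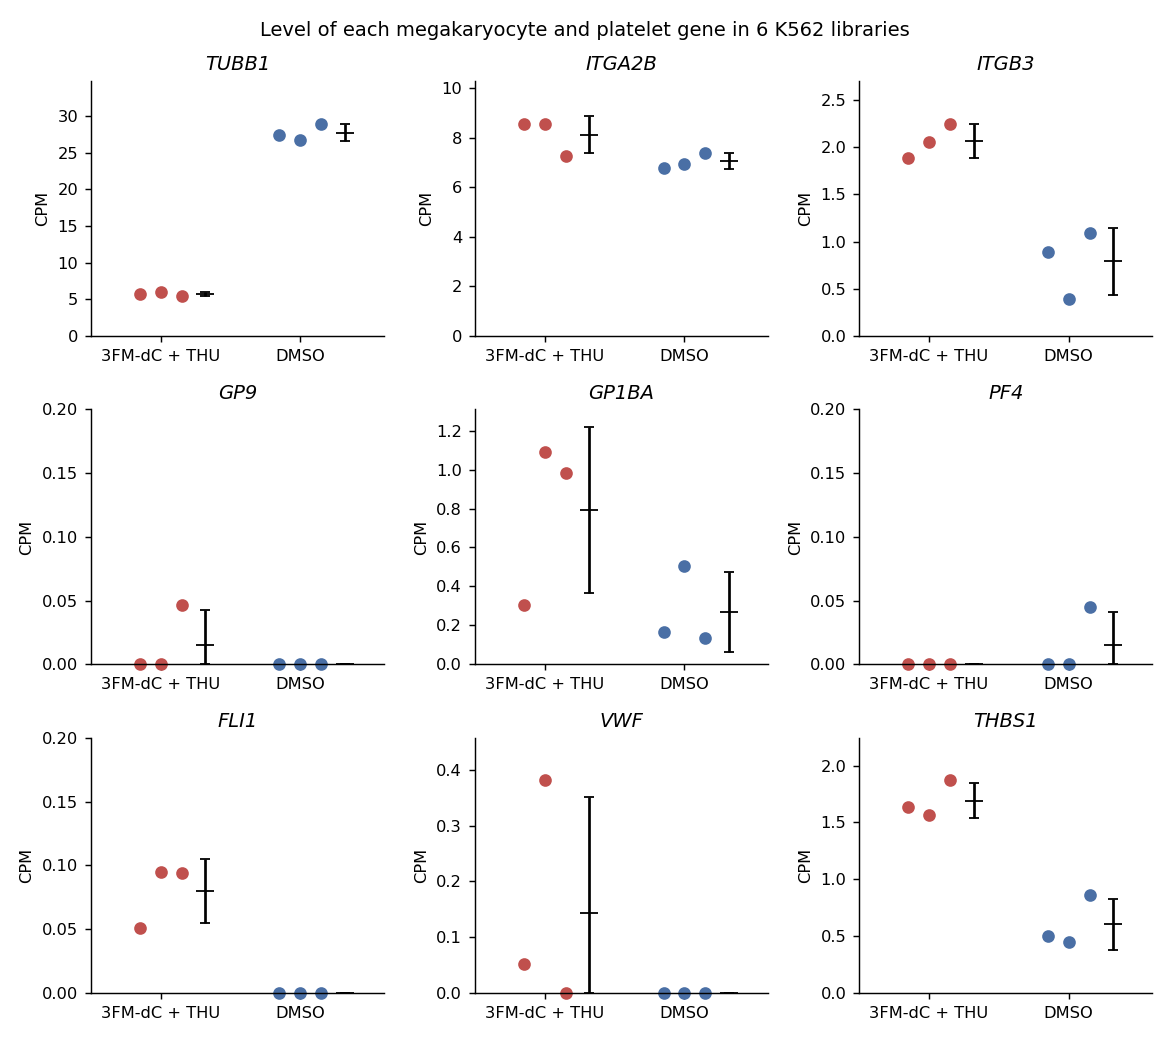
CPM of each of the 9 genes (y axis, starting at 0, with its own scale in each panel) in the 3 libraries with 3FM-dC plus THU (red) and the 3 DMSO libraries (blue); points are libraries, and the black mark is the mean with its SD, stopped at 0. TUBB1 lay between 5.43 and 6.05 CPM in treated libraries and between 26.8 and 29 CPM in DMSO libraries, whereas GP9, PF4 and FLI1 stayed under 0.1 CPM in every library.

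The remaining 5 genes were under the count filter, and all but GP1BA were close to undetected. GP1BA encodes a chain of the platelet receptor for von Willebrand factor. It had 6, 23 and 21 counts with 3FM-dC plus THU, against 3, 9 and 3 counts with DMSO. Treated replicate 1 lay below DMSO replicate 2, so the groups overlapped. Its summed counts differed 3.12-fold, with an exact 95% interval of 1.72 to 5.98 that covers counting error only. With no filter it was higher by a log2 fold change of 1.57 (SE 0.60, edgeR adjusted p = 0.0189). DESeq2 did not call it (adjusted p = 0.0582). Without a filter, the call was also lost when DMSO replicate 1 (adjusted p = 0.0790), DMSO replicate 3 (0.156), treated replicate 2 (0.124) or treated replicate 3 (0.108) was left out.

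VWF encodes von Willebrand factor itself, the ligand of GP1BA, made by endothelial cells and megakaryocytes. It had 1, 8 and 0 counts with 3FM-dC plus THU and none in the 3 DMSO libraries. Treated replicate 2 thus held 8 of its 9 counts, and the mean of the treated libraries, 0.144 CPM, lay within the range of 3 counts per library. With no filter VWF gave an adjusted p of 0.0197 by edgeR and of 0.120 by DESeq2. The edgeR value was 0.450 without treated replicate 2. Among 15 endothelial markers, CDH5 and EMCN had no count in any library and KDR had 1 count in all, and the list summed to between 95.7 and 104 CPM with 3FM-dC plus THU and to between 148 and 155 CPM with DMSO. Of the 7 endothelial markers tested, ESAM rose and 4 fell, beside 33.8% and 32.7% of all tested genes. Only the treated libraries of ESAM brought it past the filter, which partly fixed its direction. MMRN2, counted as fallen, passed the filter by way of its DMSO libraries, with the same effect. The others that fell were NOS3 (log2 fold change -0.38), PECAM1 (-0.88) and EGFL7. EGFL7 had 61.6 ± 2.90 CPM with 3FM-dC plus THU and 101.6 ± 4.80 CPM with DMSO (SD, n = 3 each). The call of PECAM1 was lost without treated replicate 2 (edgeR adjusted p = 0.0676) or without DMSO replicate 2 (0.0819).

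FLI1, the ETS factor that activates ITGA2B, GP9 and other late megakaryocyte genes, had 1, 2 and 2 counts with 3FM-dC plus THU and none with DMSO. All its values were under 3 counts, so no fold is given, and with no filter it did not pass (edgeR adjusted p = 0.0899). GP9 encodes a small subunit of the GP1BA receptor complex. It had 1 count in treated replicate 3 and none elsewhere. PF4, platelet factor 4, is a chemokine of alpha granules. It had 1 count in DMSO replicate 3 and none elsewhere. No difference in GP9 or PF4 was detectable at this depth, where no count allows up to 0.168 CPM per library by a floor of 3 counts.

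TUBB1 made up less of the counts of the 9 genes with 3FM-dC plus THU, and ITGA2B, ITGB3 and THBS1 made up more. TUBB1 supplied 31.5%, 30.5% and 30.3% of the counts of the 9 genes with 3FM-dC plus THU, against 76.7%, 76.4% and 75.3% with DMSO. The widest exact 95% binomial intervals ran from 26.7% to 36.6% in treated replicate 1 and from 72.8% to 79.6% in DMSO replicate 2. ITGA2B supplied between 40.5% and 46.9% with 3FM-dC plus THU and between 18.9% and 19.8% with DMSO. ITGB3 and THBS1 supplied between 7.93% and 12.5% each with 3FM-dC plus THU and between 1.12% and 2.82% each with DMSO. These shares follow from the levels above and are not a further test. A share also rises when another gene falls, and the level of ITGA2B itself did not pass the test.

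**Figure D2:**
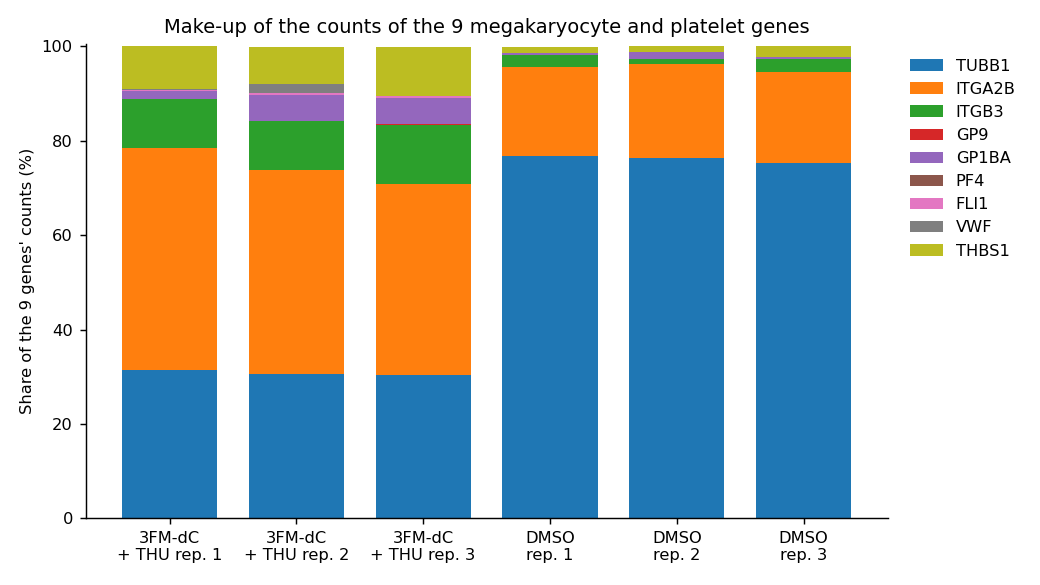
Share of the summed counts of the 9 genes taken by each gene (y axis, %), with 1 stacked bar per library, the 3 libraries with 3FM-dC plus THU on the left and the 3 DMSO libraries on the right. TUBB1 filled between 30.3% and 31.5% of each treated bar and between 75.3% and 76.7% of each DMSO bar.

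Per length, the 5 most abundant of the genes stood in the same order in both groups. That order depends on the lengths used. In mean CPM, ITGA2B (8.13) stood above TUBB1 (5.74) with 3FM-dC plus THU and below it with DMSO (7.04 against 27.8). Levels were divided by the exonic length of each gene in GENCODE release 29, which may differ from the authors' annotation. With 3FM-dC plus THU, TUBB1 had 1.64 ± 0.0874 and ITGA2B 1.46 ± 0.135 CPM per kilobase (SD, n = 3), and these neighbours came close, with libraries from 1.55 to 1.73 for TUBB1 and from 1.31 to 1.54 for ITGA2B. With DMSO, TUBB1 had 7.94 ± 0.332 and ITGA2B 1.27 ± 0.0584 CPM per kilobase. ITGB3 was next in both groups, at 0.470 ± 0.0405 with 3FM-dC plus THU and 0.180 ± 0.0816 CPM per kilobase with DMSO. GP1BA followed at 0.318 ± 0.170 with 3FM-dC plus THU and 0.108 ± 0.0817 with DMSO, and its libraries overlapped those of ITGB3 and of THBS1 in both groups. THBS1 had 0.185 ± 0.0174 with 3FM-dC plus THU and 0.0659 ± 0.0246 CPM per kilobase with DMSO.

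The authors' deposited table gives a ratio of group B over group A for each gene, and its header does not name the groups. It lists a ratio of 0.205 for TUBB1, 1.14 for ITGA2B, 2.59 for ITGB3 and 2.78 for THBS1. For GP1BA the authors' deposited table lists a ratio of 2.93 with an adjusted p of 0.0962.

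The genes whose profile over the 6 libraries was most like that of TUBB1 were HEMGN, IGSF1 and PKLR. HEMGN, a nuclear protein of erythroid cells, had 82.3 ± 3.64 CPM with 3FM-dC plus THU and 355.5 ± 5.48 CPM with DMSO (SD, n = 3 each), and its centred log2 profile lay within a root mean square of 0.0615 of that of TUBB1. PKLR, the pyruvate kinase of red cells and liver, had 44.6 ± 3.14 CPM with 3FM-dC plus THU and 199.6 ± 3.09 CPM with DMSO at a distance of 0.106. IGSF1, an immunoglobulin superfamily protein, lay at 0.0697, with 0.357 ± 0.0457 CPM with 3FM-dC plus THU and 3.21 ± 0.0652 CPM with DMSO. At such low levels the added 0.5 CPM shrinks the profile, and its edgeR log2 fold change of -3.15 was unlike that of TUBB1. The profiles nearest to ITGA2B were those of SNHG6 (0.0262), PHKA1 (0.0305) and PHTF1 (0.0334). With 3 libraries in each of 2 groups, this likeness mostly reflects a shared difference between the groups.

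TUBB1 is a minor member of the beta tubulin family in K562. It made up 0.168%, 0.185% and 0.162% of all beta tubulin counts with 3FM-dC plus THU, against 0.626%, 0.610% and 0.654% with DMSO. Of the 8 tested beta tubulins, 5 fell, TUBB1 included, 2 rose and TUBB2A did not pass, and with total counts 4 fell and 3 rose. The background was 32.7% of all tested genes lower and 33.8% higher, and with total counts 3189 genes lower and 5048 higher. TUBB, the most abundant by counts, fell to 2696 ± 71.9 CPM with 3FM-dC plus THU, against 3582 ± 12.5 CPM with DMSO (SD, n = 3 each; log2 fold change -0.41). TUBB4B fell by 0.43 on the log2 scale. TUBB4A fell by 2.34 on the log2 scale (SE 0.33), with 48 counts with 3FM-dC plus THU and 228 with DMSO. It passed the filter by way of its DMSO libraries, which partly fixed its direction. TUBB3 rose by 0.87, as TUBB2B did by 0.85.

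Among integrin chains, ITGA5, ITGAV and ITGB1, well detected in both groups, rose. Of 26 chains 12 were tested, of which 7 rose, ITGAE fell and 4 did not pass, and 5 of the 12 were under the filter's minimum in at least 1 DMSO library. Of the 7 that rose, ITGA7, ITGA9, ITGB2 and ITGB3 passed the filter by way of their treated libraries, which partly fixed their direction, and 33.8% of all tested genes rose. ITGA5, a chain of the fibronectin receptor, had 140.6 ± 4.13 CPM with 3FM-dC plus THU and 82.2 ± 3.03 CPM with DMSO (SD, n = 3 each). ITGAV, the other known partner of ITGB3, had 57.8 ± 0.753 CPM with 3FM-dC plus THU and 41.6 ± 2.44 CPM with DMSO (log2 fold change 0.48). ITGB1 rose by 0.16. ITGAE fell to 7.45 ± 1.11 CPM with 3FM-dC plus THU, against 10.4 ± 0.895 CPM with DMSO.

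**Figure D3:**
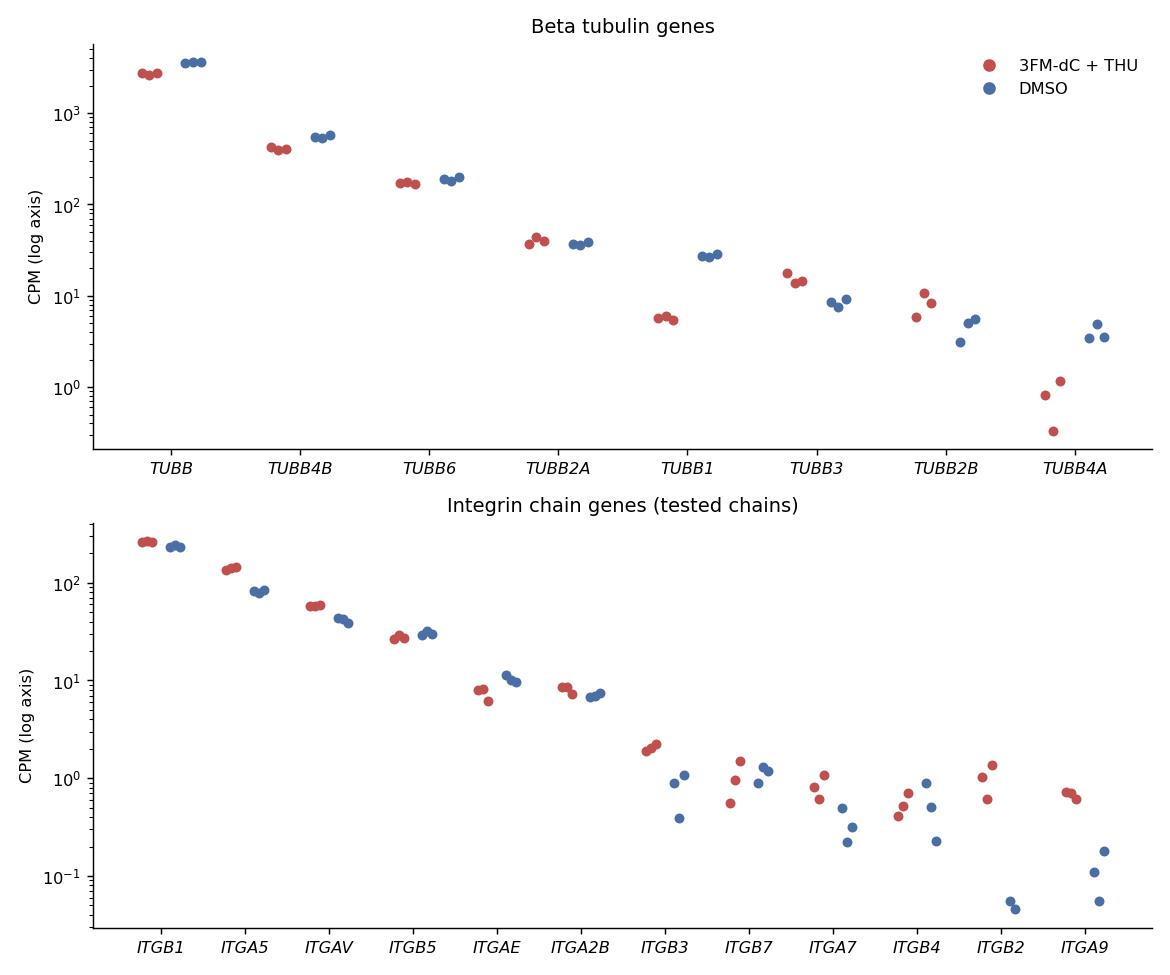
CPM (y axis, log scale) of the tested beta tubulin genes (top) and integrin chain genes (bottom), ordered by mean level, in the 3 libraries with 3FM-dC plus THU (red, left of each pair) and the 3 DMSO libraries (blue); points are libraries, and libraries with no count are not drawn. TUBB1 and TUBB4A show the widest gaps among the tubulins, with log2 fold changes of -2.27 and -2.34, and ITGA2B shows overlapping groups.

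Among transcription factors of megakaryocytes and their progenitors, NFE2, GATA1 and GATA2 fell and RUNX1 rose. Of 24 listed factors 22 were tested, of which 12 fell, 6 rose and 4 did not pass, with a median log2 fold change of -0.29 beside 0.01 for all tested genes, of which 32.7% fell and 33.8% rose. With total counts 12 factors fell and 9 rose, in a background of 3189 genes lower and 5048 higher. RUNX1 had 222.9, 203.8 and 234.2 CPM with 3FM-dC plus THU, against 73.3, 77.5 and 74.8 CPM with DMSO, a rise by 1.55 on the log2 scale, and its partner CBFB rose by 0.59. NFE2, which drives platelet release and TUBB1 itself in mouse megakaryocytes, had 116.4, 97.9 and 108.4 CPM with 3FM-dC plus THU, against 263.7, 265.4 and 272.4 CPM with DMSO. Its groups were well apart (log2 fold change -1.31, SE 0.05, edgeR adjusted p = 1.26e-19). KLF1, the erythroid factor that opposes FLI1, fell by 1.94 on the log2 scale, with 44.8 ± 3.48 CPM with 3FM-dC plus THU and 172.2 ± 6.09 CPM with DMSO (SD, n = 3 each). GATA1 fell by 0.57 and GATA2 by 0.69 on the log2 scale. Both KLF1 and GATA1 are counted in this list and again among the 15 erythroid markers.

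The ETS family gave a mixed picture beside the near absence of FLI1. ETS1 had 89, 161 and 147 counts with 3FM-dC plus THU, against 0, 1 and 4 counts with DMSO. It rose (edgeR adjusted p = 6.01e-13), and only its treated libraries brought it past the filter. Its log2 fold change depends on the few DMSO counts, at 6.11 with all libraries, 7.54 without DMSO replicate 3 and 5.60 without DMSO replicate 1. ETV6, a repressor needed for platelet production, rose by 0.46 on the log2 scale, with 15.8 ± 1.05 CPM with 3FM-dC plus THU and 11.5 ± 1.44 CPM with DMSO (SD, n = 3 each). ERG had 7 counts with 3FM-dC plus THU and none with DMSO.

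Platelet surface receptors went both ways, and several of the most specific ones were not detected. Of 32 listed receptors 20 were tested, of which 9 rose, 6 fell and 5 did not pass (median log2 fold change 0.19), and 3 were under the filter's minimum in at least 1 DMSO library. Called receptors were 75% of those tested, beside 66.4% of all tested genes, of which 33.8% rose and 32.7% fell. GP6, the collagen receptor, had 50.7, 53.7 and 46.8 CPM with 3FM-dC plus THU, against 28.6, 27.4 and 29.1 CPM with DMSO (log2 fold change 0.83, SE 0.07, edgeR adjusted p = 1.95e-11). The thrombin receptor F2RL3 fell to 16.5 ± 0.400 CPM with 3FM-dC plus THU, against 37.9 ± 0.766 CPM with DMSO (SD, n = 3 each). CD36, a receptor for thrombospondin-1, fell by 2.19 on the log2 scale, with 10, 14 and 13 counts with 3FM-dC plus THU and 38, 59 and 62 with DMSO. GP1BB, the partner chain of GP1BA, and the ADP receptor P2RY12 had no count in any library. SELP, P-selectin, had 1 count with 3FM-dC plus THU and 0 with DMSO.

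Granule genes were also split. Of 32 listed genes 22 were tested, of which 8 rose, 7 fell and 7 did not pass, with a median log2 fold change of 0.02. The called share, 68.2%, was near the 66.4% of all tested genes, of which 33.8% rose and 32.7% fell. With total counts 10 rose and 5 fell, in a background of 5048 genes higher and 3189 lower. TIMP1, an inhibitor of metalloproteinases stored in platelets, had 241.2 ± 17.9 CPM with 3FM-dC plus THU and 99.7 ± 4.85 CPM with DMSO (SD, n = 3 each). RAB27A, a small GTPase of granule transport, rose by 0.77, while UNC13D, a priming factor of granule release, fell by 0.63 on the log2 scale. PDGFB, a growth factor chain, fell by 1.61 on the log2 scale (edgeR adjusted p = 0.00825), with 19 counts with 3FM-dC plus THU and 56 with DMSO. Without DMSO replicate 3 its adjusted p was 0.152. PDGFB passed the filter by way of its DMSO libraries, which partly fixed its direction. PPBP, an abundant platelet chemokine, had 3 counts in treated replicate 1 and none elsewhere.

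All 26 listed genes of the platelet cytoskeleton were tested, of which 12 rose, 10 fell and 4 did not pass, with a median log2 fold change of 0.12. Calls covered 84.6% of the list, beside 66.4% of all tested genes, of which 33.8% rose and 32.7% fell. TPM4, a tropomyosin needed for platelet formation, had 256.5, 314.2 and 290.0 CPM with 3FM-dC plus THU, against 60.4, 61.2 and 63.7 CPM with DMSO. It rose 4.64-fold (log2 fold change 2.22, SE 0.06, edgeR adjusted p = 2.08e-23). ZYX, a focal adhesion protein, rose 2.02-fold. SDPR, a caveola-associated protein first described in platelets, fell to 39.6 ± 7.55 CPM with 3FM-dC plus THU, against 123.9 ± 4.98 CPM with DMSO (SD, n = 3 each). TUBA4A, the alpha tubulin that joins TUBB1 in platelets, fell by 0.69 on the log2 scale.

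Signalling and prostanoid genes complete the set. Of 28 listed genes 23 were tested, of which 10 rose, 8 fell and 5 did not pass, with a median log2 fold change of 0.10. Here 78.3% of the tested genes were called, beside 66.4% of all tested genes, of which 33.8% rose and 32.7% fell. ALOX12, the platelet lipoxygenase, had 12.8, 16.9 and 11.7 CPM with 3FM-dC plus THU, against 3.22, 2.91 and 3.72 CPM with DMSO (log2 fold change 2.06, SE 0.16, edgeR adjusted p = 6.55e-12). PTGS1, the cyclooxygenase blocked by aspirin, went the other way, at 5.11 ± 0.124 CPM with 3FM-dC plus THU and 10.2 ± 0.603 CPM with DMSO (SD, n = 3 each). ITPR1, a calcium channel of the endoplasmic reticulum, rose 1.97-fold, and SH2B3, an adaptor that restrains cytokine signalling, rose 1.44-fold.

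**Figure D4:**
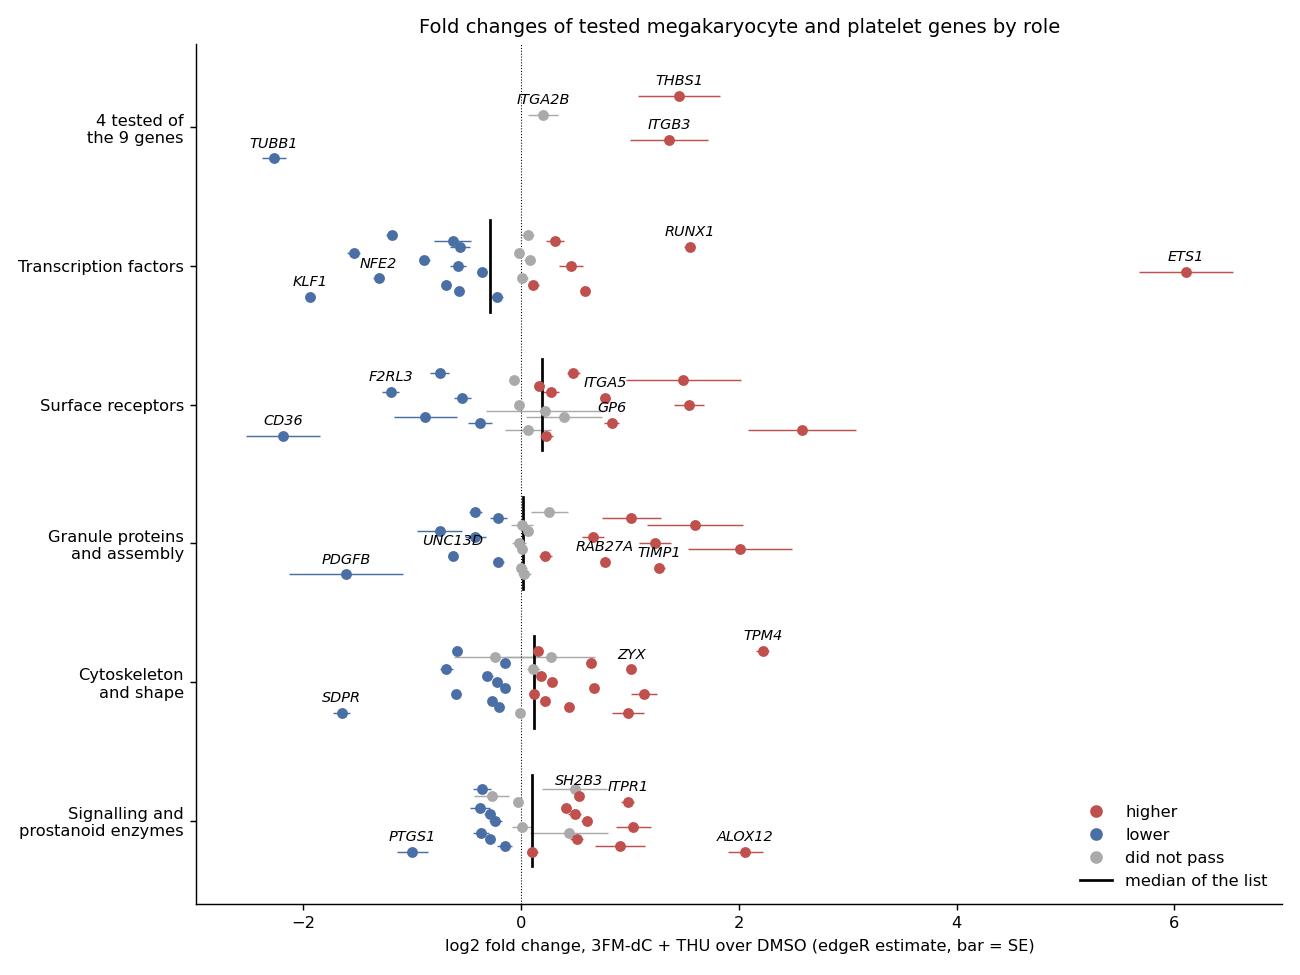
Log2 fold change of 3FM-dC plus THU over DMSO (x axis, edgeR estimate with SE) for the tested genes among the 9 and for tested genes of 5 wider lists (rows); red genes were higher, blue genes lower and grey genes did not pass, and the black line is the median of each wider list. The medians lay between -0.29 (transcription factors) and 0.19 (surface receptors), and among single genes TUBB1 lay lowest and ETS1, nearly undetected with DMSO, highest.

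Of the 15 erythroid markers 14 fell and ALAS2 rose by 0.40 on the log2 scale, beside 32.7% lower among all tested genes. HBE1, the embryonic beta-like globin, had 1324.5 ± 20.6 CPM with 3FM-dC plus THU and 2664.9 ± 23.7 CPM with DMSO (SD, n = 3 each). Lymphoid markers summed to between 11.1 and 12.4 CPM with 3FM-dC plus THU and to between 8.26 and 9.52 CPM with DMSO, where CD2 and MS4A1 had no count. Among the lymphoid markers tested, NKG7 rose and CD3D, which held most of that sum, did not pass. NKG7 passed the filter by way of its treated libraries, which partly fixed its direction.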

How the data were processed

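Raw read counts per gene symbol, deposited for each of the 6 libraries, were used as they stood. The input was 1000 ng of RNA per library and the kit a directional one, per the labels' protocols. STAR, Cufflinks, DESeq2 and hg19 are named without roles, per the submitters' processing notes, and no source used here gives the counting program or its strand setting. The 5 totals of unassigned reads in each table (between 10.9% and 13.1% of counts in no feature, between 2.27% and 2.38% ambiguous) were left out. The authors' deposited table gives a fold ratio, a p-value and an adjusted p-value per gene.

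The main test was edgeR's quasi-likelihood F test (version 4.0.16, under R 4.3.3), two-sided, with treatment as the only term, TMM scaling, filterByExpr with a minimum count of 10 (12339 genes kept) and Benjamini-Hochberg adjustment over all tested genes. The test was also run on simulated data. DESeq2 1.42.0, limma 3.58.1 voom, other scalings and filters, a replicate block and leaving out each library served as alternatives. CPM intervals and floors cover counting error only. Replicates of a group differed beyond counting noise (chi-square per degree of freedom between 2.38 and 6.22) and were kept as separate samples.

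The 9 genes and the wider lists were chosen with earlier results of these data known, and each wider list was chosen by function. From each list the text names the 3 called genes of smallest p whose groups did not overlap and whose mean reached 2 CPM, and the called gene most against its list. RUNX1, GATA1, GATA2, NFE2, ETV6, GP1BB, ITGAV, ITGB1, PPBP, SELP, P2RY12 and TUBB were always named, and some listed genes are not reported here. Profiles were compared as log2(CPM + 0.5) centred per gene. CBFB, ERG, TUBA4A, TUBB2A, TUBB2B, COL1A1, CD3D and NKG7 were picked with their values in view.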

Additional observations from a re-analysis of the deposited data

How the results depend on the processing

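TUBB1, ITGB3 and THBS1 kept their direction and their call under all 14 settings tried, the reported one included, with log2 fold changes from -2.32 to -2.18, from 1.05 to 1.68 and from 1.28 to 1.83. ITGA2B passed under none of them (adjusted p from 0.0743 to 0.398). With no filter on low counts, 5 of the 9 genes were called instead of 3, 4 of them higher, the added ones being GP1BA and VWF, because more genes were then tested. Leaving out 1 library gave between 3 and 4 called genes, both with the filter and, as an alternative chosen after seeing the data, without it, between 2 and 3 of them higher. Among integrin chains, 11 were higher with no filter and 4 with a filter at 1 CPM on the mean; 2 were lower with DESeq2 and with no filter, and 1 to 2 when 1 library was left out. Endothelial markers gave 2 higher with DESeq2, 3 with no filter, 0 with the 1 CPM filter and between 1 and 2 without 1 library. Fibroblast markers gave 1 higher with the 1 CPM filter and between 0 and 1 lower without 1 library. Lymphoid markers gave 5 higher and 1 lower with no filter and 1 higher with the 1 CPM filter. Among 42 named genes, 5 of 544 values lost their call, those of PDGFB, PECAM1 and COL1A2 when 1 library was left out. Same-numbered replicates did not deviate together (r = -0.002, -0.001 and -0.067 across 12339 genes), so the numbers were not taken as pairs. A replicate block left 3 of the 9 genes called, with 2 higher and 1 lower. Depth limits GP1BA, VWF, FLI1, GP9 and PF4: GP1BA, the best detected, had 50 counts with 3FM-dC plus THU and 15 with DMSO.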
